A study of Danio rerio with 9 samples.

Results

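The response of the whole zebrafish larva to 1 h of the antibiotic neomycin was measured by comparing 3 arrays of larvae given neomycin alone with 3 arrays of control larvae, chosen by their sample labels, which makes 6 of the 9 arrays of the series. All larvae were of the zebrafish, Danio rerio, at 5 days post fertilization, and each array holds RNA of whole larvae. Control larvae were kept for 1 h in 1% DMSO and then for 1 h in vehicle. Neomycin larvae had the same 1 h in 1% DMSO and then 1 h in neomycin at 200 µM. The remaining 3 arrays, from larvae given tacrine at 50 µM for 1 h and then the same neomycin, entered the estimate of the spread and are described only for genes that differed between the first 2 groups. The study's design text states 3 independent experiments per group. The number of larvae pooled for an array is not given in the sources used here, and p-values measure the spread between these arrays.

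Neomycin is an aminoglycoside antibiotic that enters and kills sensory hair cells, which lie in the inner ear and in the lateral line, the row of small organs (neuromasts) on the skin with which a fish senses water movement. Immediate early genes are transcription factors and feedback regulators whose RNA rises within minutes to an hour of a stimulus, without new protein being made. The AP-1 factors, dimers of Fos, Jun and ATF proteins, and the EGR zinc finger factors are the best known of them, and DUSP phosphatases and SOCS proteins restrain the kinases that induced them. RNA of whole larvae comes mostly from muscle, skin, eye, brain, gut and liver, so hair cells supply a small part of it. In such a sample, fewer cells of a type and less RNA per cell cannot be told apart.

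The 75th percentile of signal, to which each array was scaled, was between 105 and 137 units on the control arrays and between 142 and 170 on the neomycin arrays, and on each of the 3 slides the neomycin array was the brighter. Probes well above background made up 65.6% to 69.2% of 43603 on controls and 69.9% to 70.7% with neomycin. On every slide the control sat at place 1 and the neomycin array at place 3, so place and treatment cannot be told apart. Levels below are log2 signal relative to the 75th percentile of the array, differences are neomycin minus control on that scale, and calls are those with an adjusted p (Benjamini-Hochberg, over all 31671 probes tested by limma) under 0.05. Markers of muscle, liver, pancreas, lens, retina, neurons, gut, skin and cartilage were well above background, and of the hair cell markers pou4f3 and myo6b were not on enough arrays to be tested.

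Of the 31671 probes tested, 37 were called (0.117%), 27 of them higher (0.0853%) and 10 lower (0.0316%). They stand for 23 named genes, 15 higher and 8 lower, and 9 probes without a symbol. The genes that rose include immediate early transcription factors (fosab, junbb, atf3, egr3), signalling brakes (dusp5, rgs13a), inflammatory genes (tnfb, tnfrsf9a, ptgs2b, mmp9) and the insulin-like growth factor binding protein igfbp1a, and those that fell include the annexin anxa3a and the respiratory chain assembly factor pet117. All 37 had groups that do not overlap, which largely follows from calling them on these same values and is no separate support. Of all probes, 5.78% did not overlap with neomycin higher and 7.4% with neomycin lower. At an unadjusted p under 0.05 there were 9.03% of all probes, 3.78% higher and 5.26% lower. The smallest change among the called probes was 2.05-fold. With the slide as a block in the fit the same test called 22 probes, and 10 of the 23 genes kept their call. Without control array 1, 2 or 3 the number of called probes was 37, 13 or 11. Without neomycin array 1, 2 or 3 it was 20, 11 or 65, and without array 1, 2 or 3 of the larvae given both compounds 62, 25 or 33. Only anxa3a, si:ch211-121a2.2, fosab and egr3 kept their call whichever of the 9 arrays was left out, while naaladl1 kept it in none of these 9 fits.

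**Figure D1:**
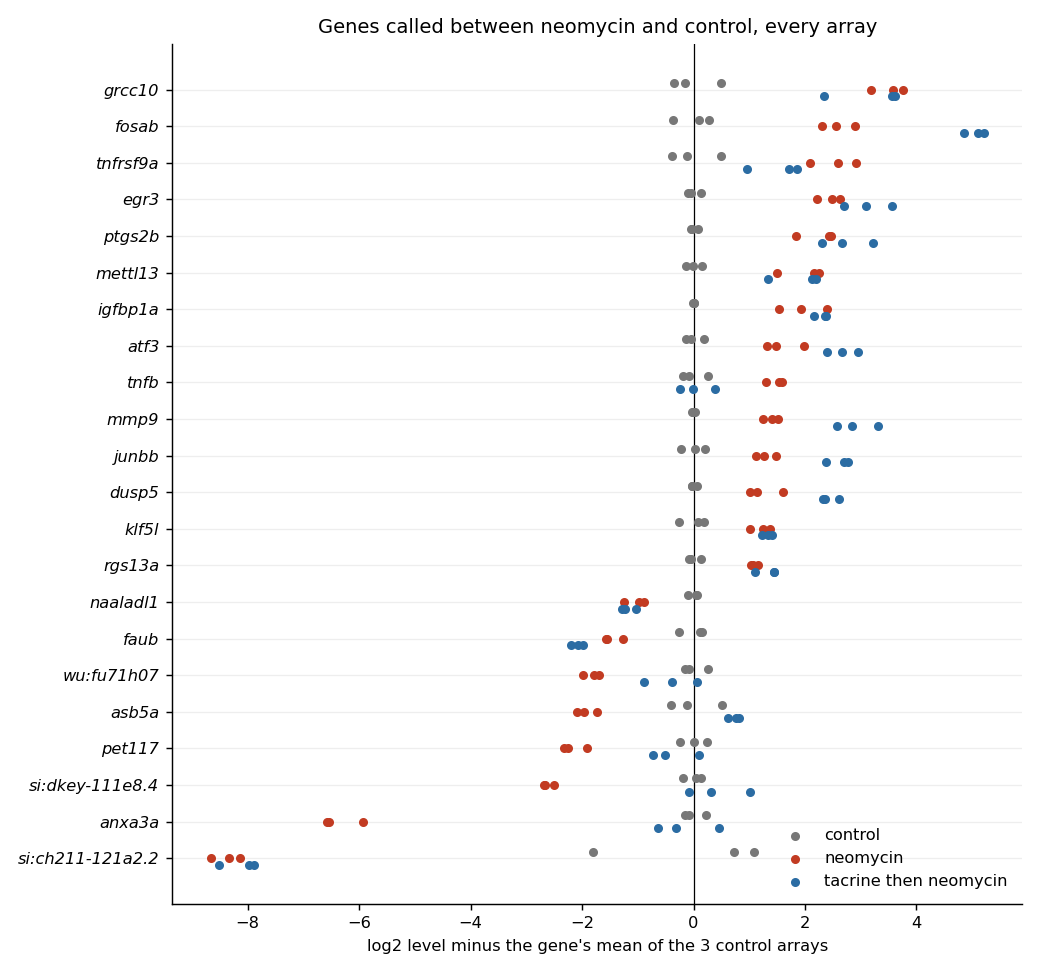
Levels of 22 called genes on every array, as log2 level minus the gene's mean over the 3 control arrays, with control arrays in grey, neomycin arrays in red and arrays of larvae given tacrine and then neomycin in blue. The neomycin points lie apart from the control points for every gene, which largely follows from drawing only called genes. Among genes well above background on all 6 arrays the difference of means runs from -2.16 for pet117 to 2.59 for fosab, and for anxa3a, si:ch211-121a2.2, si:dkey-111e8.4, asb5a and grcc10 points at background carry no exact distance.

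The AP-1 list had the highest median of the 47 gene lists examined. Of 10 members tested, all 10 had a positive difference, 3 were called higher and none lower, against 0.115% and 0.0441% of all genes by their brightest probe, and 8 had an unadjusted p under 0.05 with neomycin higher, against 3.86% of all genes. Their median difference was 1.03, against -0.01 for all 11326 genes tested, and on slides 1, 2 and 3 it was 1.14, 1.3 and 0.79. The median was positive under every scaling and background correction tried, between 0.68 and 1.05. The lists and their members were chosen with earlier results of these data known, so the rank and counts above support nothing by themselves.

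The gene fosab encodes the zebrafish Fos protein, the classical immediate early partner of Jun. Its levels were -2.54, -3.01 and -2.36 on the control arrays and -0.08, 0.27 and -0.32 on the neomycin arrays. Every neomycin array lay above every control, a difference of 2.59 (SE 0.22), or 6.01-fold, with an adjusted p of 0.0068 (limma). Of the 5 fosab probes tested, 3 were called and all 5 were higher.

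The gene junbb encodes a JunB protein, which dimerizes with Fos. Its control levels were 2.63, 2.19 and 2.45 and its neomycin levels 3.90, 3.69 and 3.55, a rise of 1.29 (SE 0.17; limma adjusted p = 0.042), or 2.44-fold. The groups did not overlap, and with the slide as a block the call held (adjusted p = 0.0444).

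Transcript of atf3, a stress-induced member of the ATF family that binds Jun proteins, was at 0.31, -0.03 and 0.06 in controls and at 2.11, 1.59 and 1.43 with neomycin. It rose 3.01-fold, by 1.59 (SE 0.22; limma adjusted p = 0.0429, and 0.0374 with the slide as a block). The neomycin arrays again lay above all controls.

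The remaining AP-1 members did not pass the test. For jdp2b, which encodes a Jun dimerization protein, the difference was 1.17 (SE 0.17) with an adjusted p of 0.0549, and it passed with the slide as a block at 0.0374. The 5 fosl2 probes disagreed: the best gave 1.34 with an adjusted p of 0.0534, the brightest 1.11 at 0.162, 2 more 0.90 and 0.59, and 1 had the opposite sign at -0.69 (adjusted p = 0.337), so none passed. For jun itself, the levels were 2.59, 2.36 and 2.52 against 3.12, 3.17 and 3.07, a difference of 0.63 (SE 0.14) with an adjusted p of 0.193. The groups of jun do not overlap, as holds for 5.78% of all probes with neomycin higher. The smallest difference in the list, 0.42, belonged to batf3.

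**Figure D2:**
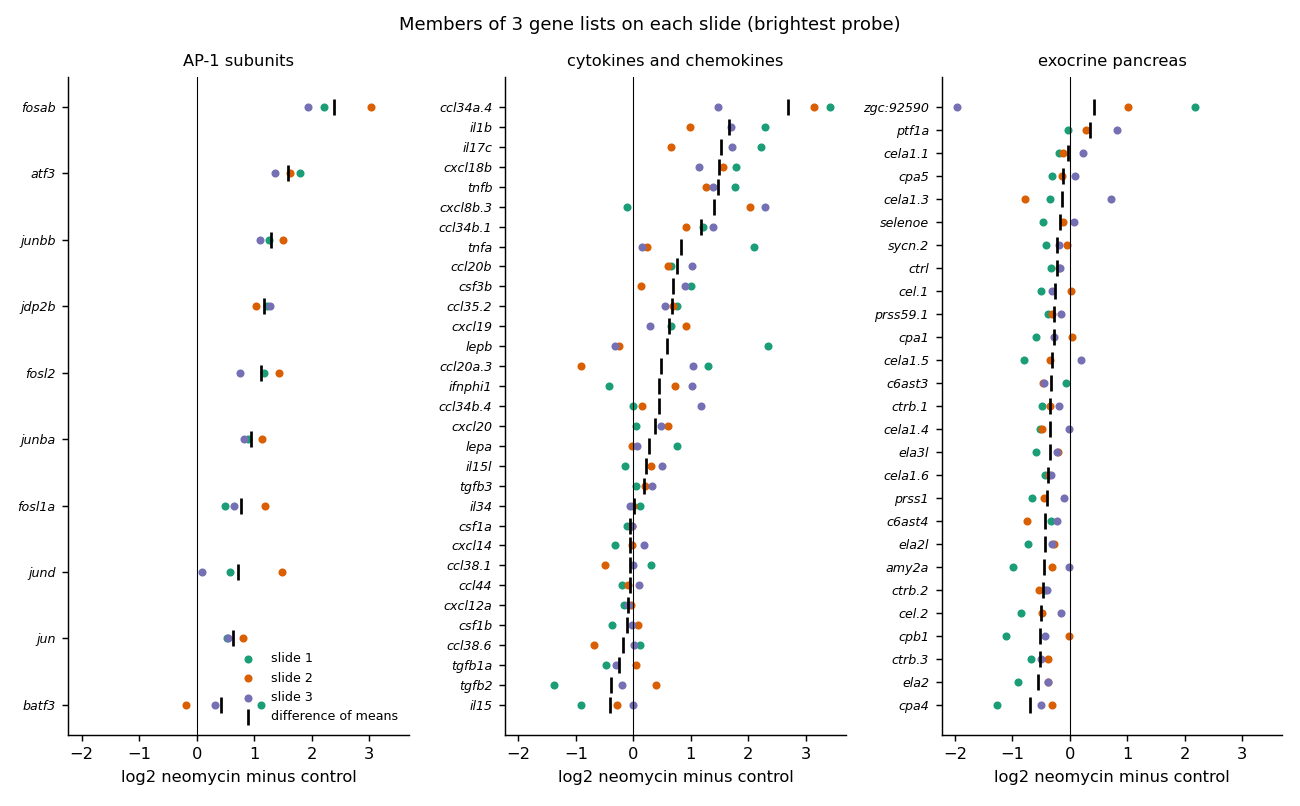
Differences of the tested members of 3 gene lists, neomycin minus control in log2 units, on slide 1 (green), slide 2 (orange) and slide 3 (purple), with the difference of the group means as a black bar. The bars of all 10 AP-1 genes lie above 0, those of 21 of 31 cytokine and chemokine genes lie above 0 and those of 25 of the 27 exocrine pancreas genes drawn lie below it.

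Of 33 genes in the list of EGR, NR4A and other immediate early factors, 1 was called higher, none lower, and the median difference was 0.15, with 8 higher and 2 lower at an unadjusted p under 0.05, against 3.86% and 4.32% of all genes. The called gene was egr3, an EGR zinc finger factor, at -0.36, -0.60 and -0.54 in controls and 1.99, 2.13 and 1.71 with neomycin. It rose 5.44-fold, by 2.44 (SE 0.22; limma adjusted p = 0.00711), on 1 of its 2 tested probes. The second probe was near background. The probe for egr1 was not well above background on any of these 6 arrays and was not tested, so the best known EGR gene has no level here. Differences of 1.22 for cebpb, 1.44 for klf4 and 1.1 for ier2a did not pass (adjusted p = 0.0707, 0.166 and 0.166). The difference of klf6b was -1.12, the opposite sign, and did not pass either (adjusted p = 0.0631).

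Feedback inhibitors of MAP kinases gave 1 call among 17 tested, dusp5, a nuclear phosphatase that inactivates ERK. Its levels were 0.51, 0.61 and 0.51 in controls and 1.69, 2.15 and 1.56 with neomycin. This is a rise of 1.25 (SE 0.17), or 2.38-fold (limma adjusted p = 0.0454), which no longer passed with the slide as a block (0.079). The median of the list was 0.07 and 2 members, dusp5 and dusp2, were higher at an unadjusted p under 0.05, against 3.86% of all genes. The gene rgs13a, for a regulator that speeds the shutdown of G protein signals, rose from -2.39, -2.58 and -2.60 to -1.46, -1.48 and -1.37. The rise was 1.08 (SE 0.14; limma adjusted p = 0.0398, and 0.0824 with the slide as a block), with little spread within either group.

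Among 21 genes of growth arrest and mRNA decay, 20 had a positive difference, against 5462 of all 11326 genes, and the median was 0.23. None was called by limma and 3 had an unadjusted p under 0.05, all of them higher, against 3.86% of all genes. The nearest was btg2, an antiproliferative factor, at 0.62 (SE 0.13; adjusted p = 0.17). The medians on the 3 slides were 0.15, 0.27 and 0.21.

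Inflammatory genes formed the second group of called genes. The ligand tnfb, a tumour necrosis factor gene of fish, was at -0.63, -0.18 and -0.53 in controls and at 1.14, 1.08 and 0.86 with neomycin, which is 2.77-fold higher, a rise of 1.47 (SE 0.20; limma adjusted p = 0.0398, and 0.0824 with the slide as a block). All neomycin arrays lay above all controls. The related tnfa gave 0.83 (SE 0.40) and did not pass (adjusted p = 0.604), and it was well above background on 1 control and 3 neomycin arrays.

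The receptor gene tnfrsf9a, whose mammalian counterpart (4-1BB) is induced on activated immune cells, rose 5.78-fold. Its levels went from 0.57, -0.32 and -0.04 to 2.98, 2.15 and 2.66, by 2.53 (SE 0.32; limma adjusted p = 0.0306, and 0.0374 with the slide as a block). In the list of TNF, NF-kB and JAK-STAT signalling it was the only gene called of 44, and the median of that list was 0.19. Of all genes by their brightest probe, 0.115% were called higher. At an unadjusted p under 0.05, 9 of the 44 were higher and 2 lower, against 3.86% and 4.32% of all genes. The list's next members were socs3a, a feedback inhibitor of cytokine receptors, at 1.1 (adjusted p = 0.0597), nfkbiaa, the inhibitor of NF-kB, at 1.05 (adjusted p = 0.11) and socs3b at 0.81 (adjusted p = 0.174), none of which passed.

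The inducible cyclooxygenase gene ptgs2b, for the first enzyme of prostaglandin synthesis, was at -2.73, -2.71 and -2.60 in controls and -0.21, -0.24 and -0.84 with neomycin. It rose 4.75-fold, by 2.25 (SE 0.25; limma adjusted p = 0.0166), and both of its probes were called. With the slide as a block this probe had an adjusted p of 0.0555. Of 17 prostaglandin and leukotriene genes it was the only one called, against 0.115% of all genes called higher by their brightest probe. At an unadjusted p under 0.05, 4 of the 17 were higher and none lower, against 3.86% and 4.32% of all genes. The prostacyclin synthase gene ptgis (0.97, adjusted p = 0.0597) and the paralogue ptgs2a (0.89, adjusted p = 0.194) did not pass.

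The matrix metalloprotease gene mmp9, whose product digests matrix at wounds, was at 2.32, 2.33 and 2.37 in controls and 3.86, 3.75 and 3.59 with neomycin. It rose by 1.39 (SE 0.19), or 2.62-fold (limma adjusted p = 0.042, and 0.0686 with the slide as a block). Among 27 matrix protease and wound genes it was the only one called, and the list's median was -0.03. Of all genes by their brightest probe, 0.115% were called higher. At an unadjusted p under 0.05, 6 of the 27 were higher and none lower, against 3.86% and 4.32% of all genes. Differences of 1.6 for serpine3 and 1.14 for the coagulation factor gene f3b did not pass (adjusted p = 0.163 and 0.165).

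Cytokine and chemokine genes as a list had a median difference of 0.44, but tnfb was the only one called. At an unadjusted p under 0.05, 11 of 31 were higher and none lower, against 3.86% and 4.32% of all genes. The chemokine cxcl18b gave 1.49 and ccl34a.4 gave 2.68, with adjusted p of 0.0597 and 0.0714. The levels of ccl34a.4 were -1.77, -2.41 and -1.91 against 1.66, 0.74 and -0.43. Both passed when neomycin array 3, the lowest neomycin array for both, was left out (limma adjusted p = 0.0324 and 0.00896). Leaving out the array nearest the controls favours passing, and it raised all called probes from 37 to 65, so this adds no support. For il1b the difference was 1.66 (SE 0.53; adjusted p = 0.359) and the probe was not well above background on any control array. The list lies low in signal, and its median was -0.41 under normexp background correction scaled to the 75th percentile, a setting in which the median of all probes was -0.35.

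The leukocyte markers mpx, lyz and mpeg1.1 were not called. The neutrophil markers mpx and lyz, for myeloperoxidase and lysozyme, gave -0.51 (SE 0.49) and -0.51 (SE 0.33), and the macrophage marker mpeg1.1 gave 0.42 (SE 0.25). Of 11 neutrophil genes tested, 5 had a positive difference, and their summed signal, in units of the array's 75th percentile, was 78.9 to 82.7 on controls and 77.4 to 89.7 with neomycin, including mmp9, the 1 gene of this list that was called. Of 22 macrophage and lymphoid genes, 15 had a positive difference and 3 were higher and none lower at an unadjusted p under 0.05. Of all 11326 genes 5462 had a positive difference, and 3.86% were higher and 4.32% lower at that p. The summed signal of the macrophage and lymphoid genes was 190 to 214 on controls and 161 to 192 with neomycin. The markers mpx, lyz and mpeg1.1 were well above background on every control and neomycin array, and csf1ra was too dim on these arrays to be tested.

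The binding protein gene igfbp1a, which encodes a secreted inhibitor of insulin-like growth factors made by the liver in stress and fasting, rose 3.87-fold. Its levels were 2.58, 2.57 and 2.59 on controls, nearly equal, and 4.97, 4.51 and 4.1 with neomycin. The rise was 1.95 (SE 0.21; limma adjusted p = 0.0142, and 0.0444 with the slide as a block), and all 3 of its probes were called. It was the only gene called of 18 in the insulin-like growth factor axis, where 14 members had a negative difference and the median was -0.13. At an unadjusted p under 0.05, 1 of the 18 was higher and 1 lower, against 3.86% and 4.32% of all genes.

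The same gene was the only one called among 39 glucocorticoid response genes, of which 3 were higher and 10 lower at an unadjusted p under 0.05, against 3.86% and 4.32% of all genes. For fkbp5 and klf9, targets of the glucocorticoid receptor named here after their values were seen, neomycin array 3 stood apart. The levels of fkbp5 were 1.52, 1.18 and 1.47 on controls and -2.1, -2.38 and 0.69 with neomycin, and those of klf9 were -0.68, -1.08 and -1.04 against -3.29, -3.26 and -1.59. Their differences of -2.65 (SE 0.68) and -1.78 (SE 0.42) did not pass (limma adjusted p = 0.261 and 0.217). Without neomycin array 3 they were -3.63 and -2.34 and passed (limma adjusted p = 0.00259 and 0.0123). That array lay nearest the controls for both genes, so leaving it out favours passing and adds no support.

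The clock repressor gene nr1d1, which encodes REV-ERB alpha, had the same shape, with -1.36, -1.29 and -1.20 on controls and -3.45, -2.79 and -1.70 with neomycin. Its difference of -1.36 (SE 0.38, limma adjusted p = 0.298) passed only without neomycin array 3, at -1.83 (limma adjusted p = 0.0434). That array lay nearest the controls, so its omission favours passing. For nr1d2a the difference was -1.81 (SE 0.48; adjusted p = 0.279). None of 34 clock genes was called by limma, and the median was -0.12. At an unadjusted p under 0.05, 1 was higher and 5 lower, against 3.86% and 4.32% of all genes. Time of day at collection is not given in the sources used here.

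By brightest probe no list held more than 1 called fall, and only the annexin and S100 list and the respiratory chain assembly list held 1. The gene anxa3a encodes an annexin, a protein that binds membrane phospholipids in the presence of calcium. It was at -0.45, -0.76 and -0.83 in controls and at -7.26, -6.61 and -7.22 with neomycin. No neomycin array had it well above background, and no other probe on the array carries its symbol. It was at least 23.3-fold lower with neomycin (measured difference -6.35, SE 0.29; limma adjusted p = 0.000102, and 0.00593 with the slide as a block). The bound sets the mean of the controls against the lowest signal that was well above background on each neomycin array, or the probe's own where that is higher. None of the other 22 annexin and S100 genes tested was called, and the median of the list was -0.08. At an unadjusted p under 0.05, 3 of its 23 genes were lower and none higher, against 4.32% and 3.86% of all genes.

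The gene si:ch211-121a2.2, which has no role assigned here, was at 4.26, 3.91 and 1.38 in controls and at -4.96, -5.48 and -5.15 with neomycin. Control array 3 was well below the other 2 controls and still far above all neomycin arrays. The probe was well above background on only 1 of 3 neomycin arrays, so the size of the fall is uncertain. The measured difference was -8.38 (SE 0.63; limma adjusted p = 0.00465, and 0.0374 with the slide as a block), and without control array 3 it was -9.28.

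The gene pet117 encodes a factor for assembly of cytochrome c oxidase, known from yeast and human cells. Its levels were -0.12, 0.13 and 0.38 in controls and -1.78, -2.19 and -2.12 with neomycin, a fall of 4.47-fold (-2.16, SE 0.24; limma adjusted p = 0.0162, and 0.0595 with the slide as a block). It was the only one called of 47 respiratory chain assembly factors, whose median was -0.00. At an unadjusted p under 0.05, 1 of the 47 was higher and 2 were lower. None of 79 subunits of the respiratory chain was called by limma or had an unadjusted p under 0.05, and their median was 0.00. Of all genes, 3.86% were higher and 4.32% lower at that p.

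The gene faub encodes a ubiquitin-like protein fused to a protein of the small ribosomal subunit. On its best probe it was at 2.21, 2.17 and 1.79 in controls and at 0.80, 0.50 and 0.49 with neomycin, a fall of 2.75-fold (-1.46, SE 0.16; limma adjusted p = 0.0166, and 0.0374 with the slide as a block). Its other 2 probes gave -0.88 and -0.73 and did not pass.

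The remaining called falls were those of naaladl1, wu:fu71h07, si:dkey-111e8.4 and asb5a, and the called probes of si:dkey-111e8.4 and asb5a were near background. The gene naaladl1, for a peptidase, fell 2.05-fold (-1.03, SE 0.15; limma adjusted p = 0.0454, and 0.0808 with the slide as a block) on 1 of 4 probes. The gene wu:fu71h07 fell 3.53-fold (-1.82, SE 0.24; limma adjusted p = 0.0374, and 0.0934 with the slide as a block). For si:dkey-111e8.4 the probe was well above background on 1 control array and no neomycin array and was at least 1.54-fold lower (limma adjusted p = 0.0103). For asb5a, an ankyrin repeat gene, the called probe (limma adjusted p = 0.0205, and 0.0565 with the slide as a block) was not well above background on any of the 6 arrays, so it has no fold, and its brighter probe gave -0.52 and did not pass.

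Other genes that rose belong to no common list. The gene klf5l, of the Krüppel-like zinc finger family, went from 0.40, 0.86 and 0.74 to 2.04, 1.91 and 1.68, a rise of 2.31-fold (1.21, SE 0.16; limma adjusted p = 0.042, and 0.0855 with the slide as a block). The gene mettl13, for a protein methyltransferase, rose 3.92-fold (1.97, SE 0.27; limma adjusted p = 0.0431, and 0.0917 with the slide as a block). For grcc10 the called probe was not well above background on any control and was at least 3.16-fold higher with neomycin (limma adjusted p = 0.0137, and 0.0655 with the slide as a block), while its 2 other tested probes gave 0.16 and -1.08. Under normexp correction scaled to the 75th percentile the differences of grcc10 and rgs13a were -0.50 and -0.12.

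Of the 9 called probes without a symbol, 7 were higher and 2 lower. The probes A_15_P396295 and A_15_P740981 carry the same transcript identifier and rose by 1.98 (SE 0.20) and 1.44 (SE 0.17), with limma adjusted p of 0.0127 and 0.0264. The probes A_15_P135361 and A_15_P138226 were not well above background with neomycin and were at least 9.95-fold and at least 6.35-fold lower (limma adjusted p = 0.0111 and 0.0398).

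A further 39 named genes, 20 higher and 19 lower, had an adjusted p between 0.05 and 0.10 and did not pass. At an adjusted p under 0.10 there were 96 probes (0.303% of those tested). Besides the immediate early and inflammatory genes given above they include ch25h, for the enzyme that makes 25-hydroxycholesterol, with differences of 2.41, 2.63 and 2.62 on its 3 probes and adjusted p of 0.057 to 0.064. Without neomycin array 3, ch25h (2.68), fosl2 (1.48) and socs3a (1.25) passed (limma adjusted p = 0.0422, 0.0422 and 0.04). The same omission raised all called probes from 37 to 65, so it adds no support for these genes. The relative of ch25h, ch25hl1.1, had the opposite sign (-0.98, limma adjusted p = 0.0714). The bile acid gene cyp8b1.1 gave 0.90 (adjusted p = 0.0599), and cyp7a1, the rate-limiting enzyme of bile acid synthesis, gave 2.15 (SE 0.43; adjusted p = 0.145). Negative differences included ccnd2a, a cyclin D gene (-0.91), pdgfaa, a growth factor gene (-0.82), arrdc2 (-1.12) and parvaa (-0.89).

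Hair cell genes showed no called change. Of 76 hair cell genes listed, 39 have a probe with a symbol and 28 were tested. None was called by limma, and 2 were higher and 3 lower at an unadjusted p under 0.05, against 3.86% and 4.32% of all genes. A negative difference was found for 22 of 28, against 5864 of all 11326 genes, and the median was -0.09. On slides 1, 2 and 3 the median was -0.15, -0.01 and -0.02, and under quantile normalization it was -0.06. The calcium-binding protein genes pvalb8 and s100t, which mark hair cells, were lower on every neomycin array than on any control but did not pass. The levels of pvalb8 were 5.42, 4.88 and 4.74 in controls and 4.28, 4.33 and 4.11 with neomycin (-0.77, SE 0.19; adjusted p = 0.223). Those of s100t were 3.70, 3.34 and 2.34 against 2.19, 2.1 and 1.97 (-1.04, SE 0.35; adjusted p = 0.387). Neither gene's groups overlap, as holds for 7.4% of all probes with neomycin lower. The proneural factor atoh1a, needed to make hair cells, was at -3.70, -3.52 and -4.04 against -3.85, -3.70 and -3.71. The summed signal of the list was 123 to 154 on controls and 111 to 138 with neomycin. These ranges overlap, but on each of slides 1, 2 and 3 the neomycin array was the lower, with 138 against 154, 125 against 137 and 111 against 123. This is not particular to hair cells. The sums of the erythroid, muscle, exocrine pancreas, liver, and macrophage and lymphoid lists were also lower with neomycin on every slide. The neutrophil sum, which includes the called gene mmp9, was lower with neomycin on slide 2 only. The hair cell sum includes s100t, so it is not separate from that gene's values.

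The lists around hair cell damage gave no calls. Of all genes, 3.86% were higher and 4.32% lower at an unadjusted p under 0.05. Among 43 genes of neuromast support and mantle cells the median was -0.00, and 3 were higher and none lower at an unadjusted p under 0.05. Among 41 genes of aminoglycoside uptake and the pronephros, where the kidney receptor megalin (lrp2a) takes up aminoglycosides, the median was 0.00. The 3 probes of lrp2a disagreed in sign, with 0.23 (SE 0.25) on the brightest and -0.54 and -0.64 on the others, and none passed. Among 44 genes of calcium sensing and handling 1 was higher and 9 lower at an unadjusted p under 0.05, against 4.32% of all genes lower, and the median was -0.10. The genes with the smallest p there were pth1b (-1.47, adjusted p = 0.202), micu2 (1.07, adjusted p = 0.22), pvalb8 and calr (-0.59, adjusted p = 0.35). Among 35 genes of phosphoinositide phospholipases and kinases, whose lipids bind aminoglycosides, none was higher and 3 were lower at an unadjusted p under 0.05, with a median of -0.00.

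In the lists of stress programmes other than AP-1 no gene was called by limma. Their counts at an unadjusted p under 0.05 stand against 3.86% of all genes higher and 4.32% lower. The stress-induced gene atf3, called higher, was counted in the AP-1 list and is not in the integrated stress response list. Of 64 oxidative stress and Nrf2 genes 3 were higher and 1 lower at an unadjusted p under 0.05 (median -0.04), and hmox1a, the haem oxygenase that Nrf2 induces, gave 0.02 (SE 0.28). Of 53 heat shock and chaperone genes 4 were higher and 1 lower (median -0.03), and hsp70l gave -0.55 (SE 0.41), with control array 3 at 2.39 above the other arrays. The integrated stress response (44 genes, 4 higher and 2 lower at that p, median 0.08), the chaperones of the endoplasmic reticulum (55 genes, none higher and 2 lower, median 0.04), apoptosis and p53 (52 genes, 2 higher and 3 lower, median -0.03) and the lysosome (73 genes, 1 higher and 3 lower, median -0.02) gave no call. The smallest p among apoptosis genes belonged to sesn2, at 0.68 (adjusted p = 0.283).

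**Figure D3:**
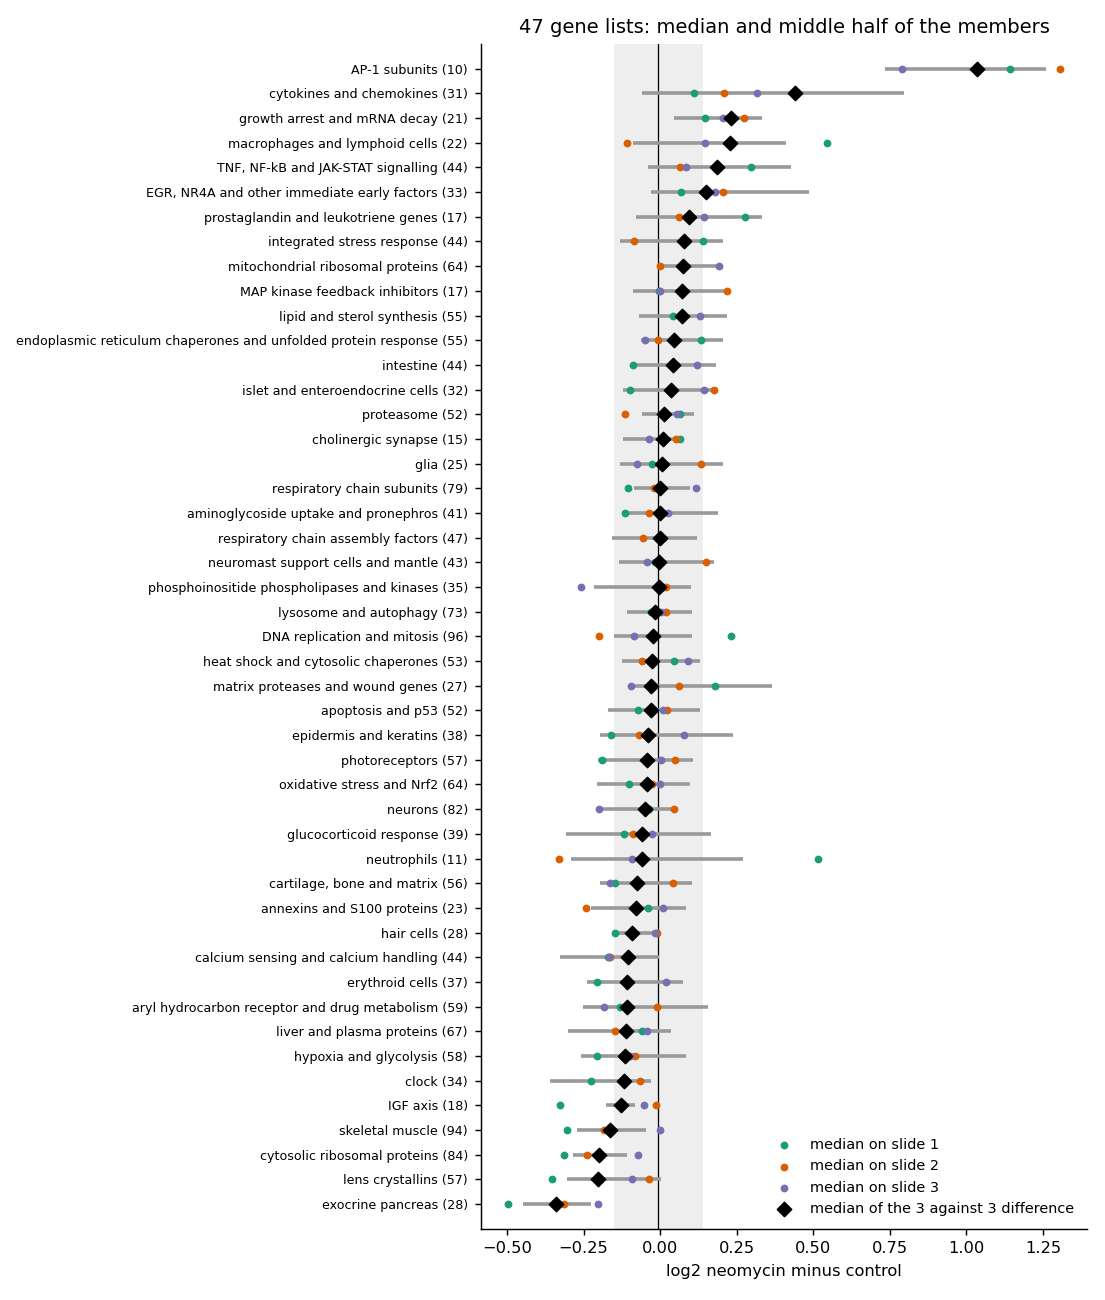
Median difference (black diamond) and middle range from the lower to the upper quartile (grey bar) of the tested members of 47 gene lists, in log2 units, with the medians on each slide as coloured points. The shaded band spans the quartiles of all 11326 genes, from -0.15 to 0.14. The AP-1 list lies at 1.03 and the exocrine pancreas list at -0.34.

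Judged by brightest probes, the tissue lists held no called gene apart from mmp9 among neutrophil genes. The exocrine pancreas list had the lowest median, -0.34, with 26 of 28 differences negative and 10 lower at an unadjusted p under 0.05, against 4.32% of all genes. On slides 1, 2 and 3 its median was -0.50, -0.31 and -0.20. The chymotrypsinogen ctrb.3 (-0.52, SE 0.16), the elastase ela2 (-0.56, SE 0.17) and ctrb.2 (-0.46, SE 0.15) had adjusted p between 0.33 and 0.35. The summed signal of this list was 2283 to 2731 units on controls and 1814 to 1966 with neomycin, without overlap. The erythroid sum did not overlap either, with 569 to 740 on controls and 446 to 508 with neomycin. Nor did the skeletal muscle sum, with 5295 to 6631 on controls and 4368 to 5249 with neomycin. The liver sum was lower with neomycin on every slide, but its ranges overlapped, with 1228 to 1508 against 1134 to 1310. Under quantile normalization the median of the exocrine pancreas list was -0.24, and under normexp with quantile normalization -0.18. Under normexp correction scaled to the 75th percentile it was 0.54. In that setting the median of all probes in the brightest of 5 bins, which holds 24 of these 28 genes, was 0.71.

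Lists of very bright genes differed in their medians. Cytosolic ribosomal proteins, 82 of whose 84 members lie in the brightest of 5 bins of probes, had a median of -0.20 with 76 negative, and under quantile normalization the median was 0.04 with 51 positive. Skeletal muscle (94 genes) had -0.16 and lens crystallins (57 genes) -0.20, and under quantile normalization these were -0.06 and -0.05. At an unadjusted p under 0.05, none of the ribosomal genes was higher and 4 were lower, for muscle the counts were 4 and 6, and for the lens none and 2. Of all genes, 3.86% were higher and 4.32% lower at that p. Respiratory chain subunits, with 74 of 79 members in the brightest bin, had a median of 0.00, and the proteasome, with 38 of 52, had 0.01. The median of all probes in the brightest bin was -0.03. The direction of the ribosomal list therefore depends on the scaling.

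**Figure D4:**
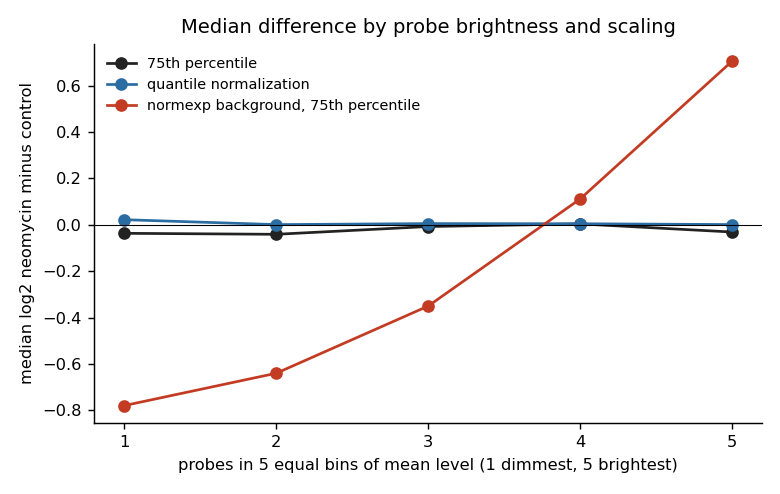
Median log2 difference, neomycin minus control, of the tested probes in 5 equal bins of mean level under 3 ways of scaling. Scaled to the 75th percentile (black) or by quantiles (blue) the medians lie between -0.04 and 0.02, while with normexp background correction and the 75th percentile (red) they run from -0.78 in the dimmest to 0.71 in the brightest bin.

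The other tissue lists had medians between -0.11 and 0.23. Liver and plasma proteins (67 genes, median -0.11), erythroid cells (37 genes, -0.11), cartilage, bone and matrix (56 genes, -0.08), neurons (82 genes, -0.05), photoreceptors (57 genes, -0.04) and epidermis and keratins (38 genes, -0.04) had slightly negative medians. Intestine (44 genes, 0.04), islet and enteroendocrine cells (32 genes, 0.04) and glia (25 genes, 0.01) had slightly positive ones, and neutrophil genes had -0.06. Macrophage and lymphoid genes had 0.23, above the upper quartile of all genes (0.14). For neutrophils and for macrophages and lymphoid cells the medians on slides 1, 2 and 3 were 0.51, -0.33 and -0.09, and 0.54, -0.11 and 0.14, so the slides differed by more than the median itself. The haemoglobin genes hbaa2, hbae1.1 and hbae3 gave -0.60, -0.57 and -0.59 and did not pass (adjusted p = 0.269, 0.285 and 0.309).

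The metabolic and housekeeping lists held no called gene by limma. Their counts at an unadjusted p under 0.05 stand against 3.86% of all genes higher and 4.32% lower. They were hypoxia and glycolysis (58 genes, 2 higher and 7 lower, median -0.11), lipid and sterol synthesis (55 genes, 4 higher and 5 lower, 0.07), aryl hydrocarbon receptor targets and drug metabolism (59 genes, 6 higher and 3 lower, -0.11), the proteasome (52 genes, none in either direction, 0.01) and DNA replication and mitosis (96 genes, none higher and 2 lower, -0.02). Mitochondrial ribosomal proteins had 52 of 64 differences positive with a median of 0.07, and their medians on the 3 slides were 0.07, 0.00 and 0.19. Among drug metabolism genes, cyp1a, the classical target of the aryl hydrocarbon receptor, gave 0.51 (SE 0.19; adjusted p = 0.447). The cholinergic synapse list (15 genes) had a median of 0.01, and ache, which encodes acetylcholinesterase, gave 0.07 (SE 0.15).

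For the 23 called genes the larvae given tacrine before neomycin were compared with larvae given neomycin alone. This comparison shares the neomycin arrays with the first, and a deviation of those arrays enters the 2 differences with opposite signs. By limma 11 of the 23 genes passed, against 2.67% of all probes. Of the 15 genes higher with neomycin, 5 were higher still with both compounds and 1 was lower than with neomycin alone. Of the 8 genes lower with neomycin, 5 were higher with both compounds than with neomycin alone. Of these 5, asb5a was counted by a probe well above background only on arrays of both compounds. That probe was tested only through the group where it is high, so it adds no support. The si:dkey-111e8.4 probe also needed those arrays to be tested.

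The 5 genes that were higher still are immediate early genes, a MAP kinase phosphatase and a protease. For fosab the levels with both compounds were 2.21, 2.47 and 2.57, a further 2.47 (SE 0.22; limma adjusted p = 0.00154) above neomycin alone. The further difference was 1.52 for mmp9, 1.33 for junbb, 1.18 for dusp5 and 1.08 for atf3, with adjusted p of 0.00541, 0.00683, 0.0114 and 0.0374. The exception was tnfb, at -0.69, -0.46 and -0.07 with both compounds, lower by 1.43 (SE 0.20; limma adjusted p = 0.00793) than with neomycin alone and overlapping the controls.

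Among the genes that neomycin lowered, anxa3a was at -0.23, -1.32 and -0.99 with both compounds, at least 20.8-fold above neomycin alone (limma adjusted p = 6.56e-05) and -0.17 from the controls. The genes pet117 (1.78) and wu:fu71h07 (1.41) were likewise above neomycin alone, with adjusted p of 0.00716 and 0.0195. The probes of si:dkey-111e8.4 and asb5a, at background with neomycin alone, were at least 2.06-fold and at least 1.39-fold higher with both compounds (limma adjusted p = 0.00113 and 0.0013). The brighter asb5a probe, well above background on every array, went the other way. With both compounds it was -0.22 from neomycin alone (limma adjusted p = 0.553) and -0.74 from the controls (limma adjusted p = 0.0364). For si:ch211-121a2.2 the levels were -4.70, -5.33 and -4.79, a difference from neomycin alone of 0.26 (SE 0.63; limma adjusted p = 0.876). For egr3, igfbp1a, ptgs2b, klf5l and rgs13a the difference between both compounds and neomycin alone was 0.67, 0.35, 0.49, 0.11 and 0.25 and did not pass.

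Some probes crossed the background between all arrays of the groups. There were 13 probes well above background on all 3 controls and on no neomycin array, of which 3 were called, and 218 the other way round, of which 3 were called. The neomycin arrays were the brighter ones on each slide, and its part in this difference was not tested. The highest bound belonged to a probe without a symbol that was at -6.54, -6.47 and -6.81 on controls and at 4.38, 2.43 and -0.36 with neomycin, at least 120-fold higher. It did not pass (limma adjusted p = 0.311), and with both compounds it was at -7.39, -7.02 and 3.21. Its standard deviation was 0.18 on controls, 2.39 with neomycin and 6.01 with both compounds. All 3 groups enter the estimate of the spread. Probes for faima, taf13 and asic2, named here after their values were seen, also changed by at least 4-fold between background and signal without passing (adjusted p = 0.407, 0.36 and 0.261).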

How the data were processed

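Each array came as 1 deposited scanner file. Per the file headers its values are a linear intensity, given as a signal already corrected for background and as medians for the spot and its surround. Further deposited columns, in another unit (0 or 1), flag whether a spot was clearly brighter than background, saturated or an outlier. A matrix of log2 values deposited by the authors served as an alternative only, and how it was made is not given in the sources used here. Agilent Feature Extraction is given as version 8.0 in the submitters' processing notes and as 10.1.1.1 per the file headers.

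From the log2 processed signal (outlier spots left out, spots of a probe averaged) the 75th percentile of each array was subtracted. A probe was tested if 3 or more of the 9 arrays had it well above background. The test was limma (version 3.58.1, R version 4.3.3, functions lmFit and eBayes, two-sided, 6 residual degrees of freedom, all 9 arrays in 1 model), adjusted over all 31671 probes by Benjamini and Hochberg. Symbols come from RefSeq accessions matched to the GRCz12tu gene table: 25173 probes have 1 symbol, from 12900 genes. A gene is shown by its called probe with the smallest p, and a list member by its brightest probe. The members and lists were chosen with earlier results of these data known, so they support nothing by themselves. Named genes are those called, those with an adjusted p under 0.10, up to 4 per list by smallest p, and a set given throughout. A called gene and a list member are not reported here, though they are counted. No sequence and no promoter motif was analysed here. Alternatives were the slide as a block, 6 arrays only, other background corrections and scalings, other filters, trend, array weights, the authors' matrix and each array left out. Precision is limited by 3 arrays per group.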

Additional observations from a re-analysis of the deposited data

How the results depend on the processing

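Of the 37 called probes, all that a setting held kept their direction, except under normexp correction scaled to the 75th percentile, where 32 of 37 did, the median of all probes was -0.35, and 0 probes were called by limma (4981 at an unadjusted p under 0.05). The total called, higher and lower, was 22, 17 and 5 with the slide as a replicate block, 7, 5 and 2 with normexp and quantile normalization, 20, 12 and 8 with no filter on dim probes, 65, 45 and 20 with probes well above background on all 6 arrays, 73, 51 and 22 with a mean-variance trend, 195, 95 and 100 with array weights, 18, 13 and 5 in the authors' matrix and 96, 59 and 37 at an adjusted p under 0.10. With 6 arrays only it was 43 and with quantile normalization 45, and quantile normalization kept all 37. Leaving out 1 array gave 11 to 65 called, 4 to 47 higher and 3 to 34 lower, and between 8 and 35 of the 37 were kept. Same-numbered control and neomycin arrays share a slide, and their deviations correlated at 0.26, 0.23 and 0.02. The block kept 19 of the 37. Of the 23 genes, 11 passed in both compounds against neomycin alone with or without the block, 8 to 11 when 1 array was left out, and 0 under normexp scaled to the 75th percentile (11 at an unadjusted p under 0.05).

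Signs turned under normexp scaled to the 75th percentile for batf3 (-0.63), f3b (-0.27), grcc10 (-0.50), il1b (-0.68), klf4 (-0.61), lrp2a (-0.61), rgs13a (-0.12), serpine3 (-0.68), sesn2 (-0.075), tnfa (-0.67), ctrb.2 (0.58), ctrb.3 (0.51), ela2 (0.35), hbae1.1 (0.28), hbae3 (0.31), hsp70l (0.16), lyz (0.41) and pvalb8 (0.29), and none of these passed there. Differences near 0 also turned, for atoh1a with quantile normalization (0.046), normexp and quantiles (0.035), array weights (0.11) and the authors' matrix (0), and when 1 array was left out for atoh1a (-0.15 to 0.12), hmox1a (-0.15 to 0.34), ache (-0.012 to 0.19), batf3 (-0.020 to 0.72) and hsp70l (-0.96 to 0.013). The cause was not tested. Signal over background limits the dim probes, such as those of egr1 and pou4f3.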
